A study of Mus musculus with 5 samples.

Results

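Dendritic cells are the antigen-presenting cells of the mononuclear phagocyte family. They take up material from a tissue, cut it into peptides, load the peptides on MHC class II and class I molecules and carry them to T cells. In the kidney they lie among a much larger number of macrophages. In mice they include conventional type 1 cells (Xcr1, Clec9a, Irf8, Batf3), conventional type 2 cells (Cd209a, Sirpa, Irf4) and mature cells that have switched on Ccr7, the chemokine receptor that guides them to lymph nodes. Flt3, the receptor of a growth factor that the lineage needs, marks them, and C1qa, C1qb and C1qc, the chains of complement C1q, mark macrophages.

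Here 312 dendritic cells were described in 5 mouse kidneys after ischemia-reperfusion injury, in which the blood supply is stopped and then restored. The samples were taken at 48 h (mice 1 and 2) or day 10 (mice 3, 4 and 5), and every mouse was 1 library of droplet single-cell RNA sequencing and counted as 1 replicate. All comparisons are between these times after injury, since uninjured kidneys were not among the samples. Strain, age, sex and the length of ischemia are not given in the sources used here. Members were chosen by measured values: cells that the authors labelled as immune and placed in cluster 0, with 2 or more summed UMIs (counted transcript molecules) of Flt3, Xcr1, Clec9a, Cd209a and Ccr7 and 5 or fewer of C1qa, C1qb and C1qc. That gave 12, 13, 132, 31 and 124 cells in mice 1 to 5, which were 312 of the 6321 cells of cluster 0, of 8138 immune cells and of 23797 kept cells. Only 25 of them came from 48 h, and 256 came from mice 3 and 5.

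Since the rule used these counts, the levels of its 8 genes are a description. Cd209a had 2796 UMIs in 163 members, Xcr1 1058 in 93, Clec9a 711 in 126, Flt3 600 in 211 and Ccr7 368 in 31. A member held a median of 15 marker UMIs, 208 members held UMIs of 2 or more of the 5 marker genes, and 147 held no C1q UMI. At the edge of the rule, the 29 members with exactly 2 marker UMIs had 5478 CPM (UMIs per 1000000 summed UMIs) of H2-Aa, an MHC class II chain, and 958 CPM of Apoe, a lipid carrier abundant in macrophages. Just outside, the 56 cells with exactly 1 marker UMI had 1909 CPM of H2-Aa and 1927 CPM of Apoe. A further 62 cells of cluster 0 passed the marker limit but held more than 5 C1q UMIs, 4 of them with 6 to 8. These 62 cells had 4883 CPM of H2-Aa, 13922 CPM of Cd74, another class II gene, and 15454 CPM of Apoe.

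The median member held 15117.5 UMIs, against 12246 in the rest of cluster 0. By mouse, 1 to 5, the medians were 9837, 12667, 15324, 14322 and 15193 UMIs in members and 13326, 14664, 11302, 15692 and 10690 in the rest. Members of both 48 h mice and of mouse 4 were thus shallower than the rest of their cluster, and those of mice 3 and 5 deeper. No member shared its barcode with a member of another library, 3 shared it with some barcode of another library, and pairs of libraries shared 10 to 23 barcodes. Kap, a proximal tubule transcript, was found in 272 of 312 members but in 0 of 31 in mouse 4, whose whole library held 32.3 CPM of it. No member held 2 or more UMIs of the T cell genes Cd3d, Cd3e and Cd3g, 7 held as many of the B cell genes Cd79a, Cd79b and Ms4a1, and 4 held 5 or more of the neutrophil genes S100a8 and S100a9. The limit of 5 or more UMIs of proximal tubule genes was met by 156 of 312 members, 2, 6, 93, 0 and 55 in mice 1 to 5. In the rest of cluster 0 it was met by 40.3% of cells. Doublets were not called.

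A group of genes that members shared beyond the rule was the MHC class II machinery, whose genes are controlled by factors bound just before the gene start. The 120 bases before the RefSeq start (build GRCm38.p6) are shown, 5′ to 3′ on the strand of the gene, for the 6 class II chain genes with the letters GATTGG there, the core of the Y box of these promoters. Capitals mark these letters or their reverse complement, with no overlap between matches. The windows are H2-Aa at chr17:34287824-34287943 (minus strand), H2-Eb1 at chr17:34305747-34305866 (plus strand), H2-DMb1 at chr17:34153071-34153190 (plus strand), H2-DMb2 at chr17:34145129-34145248 (plus strand), H2-Oa at chr17:34092259-34092378 (plus strand) and H2-Ob at chr17:34238785-34238904 (plus strand).
H2-Aa: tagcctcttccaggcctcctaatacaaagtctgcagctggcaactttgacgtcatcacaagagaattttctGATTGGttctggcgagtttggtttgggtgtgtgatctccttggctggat
H2-Eb1: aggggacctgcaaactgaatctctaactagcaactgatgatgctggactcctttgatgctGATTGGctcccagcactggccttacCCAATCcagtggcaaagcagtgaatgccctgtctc
H2-DMb1: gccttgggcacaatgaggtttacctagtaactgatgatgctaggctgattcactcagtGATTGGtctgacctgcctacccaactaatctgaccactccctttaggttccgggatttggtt
H2-DMb2: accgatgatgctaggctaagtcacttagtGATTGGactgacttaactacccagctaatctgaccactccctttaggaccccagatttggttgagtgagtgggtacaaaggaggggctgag
H2-Oa: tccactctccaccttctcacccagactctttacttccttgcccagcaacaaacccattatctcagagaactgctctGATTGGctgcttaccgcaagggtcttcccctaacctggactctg
H2-Ob: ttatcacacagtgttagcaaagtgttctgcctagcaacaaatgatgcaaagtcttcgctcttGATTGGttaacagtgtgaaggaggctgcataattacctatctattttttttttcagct

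Of the 16 genes of the class II list, promoters of 12 were searched, and 7 of these genes had these letters on either strand in this window, the 6 shown and Rfx5. The other genes were absent from the promoter table or left out of the search. Among all 32851 promoters of the table, 9.67% held them in the same window. That share is per promoter, whereas a listed gene counted if any of its promoters held them. H2-Ab1, Cd74 and Ciita are named only. These are matches of letters, and no binding was measured.

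Most class II genes were higher in dendritic cells than in the rest of cluster 0. H2-Aa stood at 4631, 4344, 8067, 6190.3 and 7486 CPM in members of mice 1 to 5, against 631, 301, 3385, 644 and 3862 CPM in the rest. Cd74, the invariant chain that guards the peptide groove, was 14666, 10899.9, 22322, 15820.4 and 18782 CPM against 2545, 1134, 10060.4, 2048 and 10838 CPM. Members exceeded the rest of their own mouse in all 5 mice for both genes. The ratio was smallest in mice 3 and 5, where the rest was itself high, while the rest of mouse 4 lay close to the 48 h mice.

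Ciita, the coactivator that switches class II genes on, was 289 CPM ± 87.8 (SD over the 5 mice of both times, n = 5) in members and 42.6 ± 43.0 in the rest. H2-DMb2, a chain of the peptide exchanger H2-DM, was 198 CPM ± 63.7 and 6.70 ± 2.72, and H2-Oa, a chain of its inhibitor H2-DO, was 128 CPM ± 41.0 and 2.37 ± 1.21. Of the 16 class II genes, 12 were higher in members in all 5 mice and 2 were lower, the proteases Ctss and Lgmn. Over 6144 genes with a mean of 20 CPM or more in either population, 14.4% were higher in members in every mouse and 23.7% lower. Since the rule split cluster 0 by counts of these same cells, the comparison of members with the rest is given without a test.

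**Figure D1:**
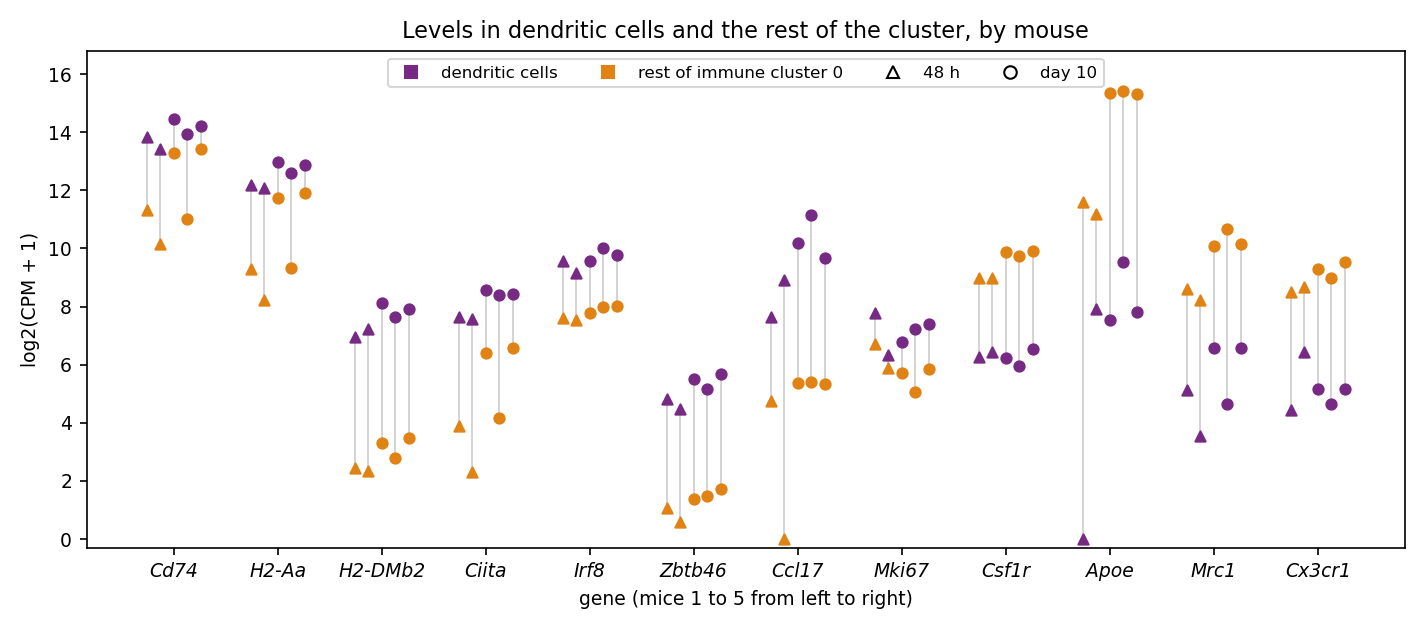
Levels of 12 genes on the scale log2(CPM + 1), 1 point per mouse and population, mice 1 to 5 from left to right within each gene, triangles for 48 h and circles for day 10. The 8 genes on the left (Cd74 to Mki67) are higher in dendritic cells in every mouse, and Csf1r, Apoe, Mrc1 and Cx3cr1 are lower in every mouse.

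In the class I pathway, genes of peptide processing were higher. Psmb8, a subunit of the immunoproteasome that cuts peptides for class I, was 942 CPM ± 81.6 in members and 324 ± 104 in the rest. With it, Psmb9, Psme1, Psme2, Tap1, Tap2, Tapbp and Wdfy4 made 8 of 18 listed genes that were higher in members in all 5 mice, and 1, the chaperone Canx, was lower. H2-K1, a class I heavy chain, and B2m, its light chain, were each higher in 2 of 5 mice.

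Transcription factors of the lineage were higher too. Zbtb46, a factor found in conventional dendritic cells and not in macrophages, was 27.3, 21.2, 44.3, 34.5 and 50.3 CPM in members and 1.10, 0.513, 1.61, 1.80 and 2.26 CPM in the rest. Irf8, needed for type 1 cells, was 795 CPM ± 168 against 221 ± 32.8, Id2 664 CPM ± 179 against 84.9 ± 16.3, and Zfp366 39.5 CPM ± 10.7 against 0.53 ± 0.237. Of 24 factors listed, 12 were higher in members in all 5 mice, Batf3, Irf4, Relb and Bcl11a among them, and 1 was lower, Zeb2.

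Among surface proteins, the receptor Kit was 41.7 CPM ± 3.68 in members and 1.23 ± 0.617 in the rest, and Dpp4, a peptidase, was 131 CPM ± 40.6 and 6.20 ± 2.90. The 15 largest ratios of members to the rest, among genes at 100 CPM or more, belonged to Sept3, Itgae, Ccl22, Ccr9, Iglc3, Klrd1, Ly6d, Siglech, H2-Oa, Cox6a2, Ifi205, Ccl5, Ccl17, H2-DMb2 and Bcl11a. Several kinds of cell are among them. Itgae is known from type 1 cells, Ccl22 and Ccl17 from mature cells, and Siglech, Ccr9, Cox6a2 and Ly6d from plasmacytoid dendritic cells, which produce interferon.

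Of the chemokines, Ccl17, which draws T cells through Ccr4, was 198, 476, 1166, 2272 and 821 CPM in members against 26.01, 0, 40.2, 40.9 and 39.5 CPM in the rest. Ccl5, Ccl17 and Ccl22 were higher in members in all 5 mice and 13 of the 18 chemokines were lower. Ccl7 had 0 UMIs in members, and Ccl12, an attractant of monocytes, had 1 UMI against 582 ± 459.5 CPM in the rest. Among 20 cytokines, 0 were higher in members in every mouse and 12 lower, and Il1a, Il6, Il10, Il23a, Il27 and Areg had 0 UMIs in all 312 cells.

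Macrophage genes were low in members. Of the 15 on the list, the rule itself kept the 3 C1q chains low, and the other 12 were lower in all 5 mice. So were 14 of 16 genes of lipid handling and uptake of dead cells. Csf1r, the macrophage growth factor receptor, was 77.1 CPM ± 11.7 in members and 754 ± 230 in the rest, and the mannose receptor Mrc1 was 51.9 CPM ± 40.4 and 907 ± 556. Of 25 pattern recognition receptors, 12 were lower in every mouse, with Tlr2, Tlr4, Tlr7, Cd14 and Nlrp3, while Tlr3 and Tlr12 were higher, beside the rule gene Clec9a.

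Apoe was 0, 243, 187, 736 and 223 CPM in members of mice 1 to 5 and 3099.9, 2299, 42150, 43323 and 40865 CPM in the rest. It was found in 3 of 25 members at 48 h, with 44 of 46 UMIs in 1 cell, and in 272 of 287 at day 10. Its day 10 level was alike in 3 marker classes described below: 200.3, 295 and 214 CPM in the Cd209a class of mice 3, 4 and 5, 169.7, 259.7 and 190.3 CPM in the Xcr1/Clec9a class and 191, 327 and 158 CPM in the Ccr7 class. In the cells with Flt3 alone, also described below, it was 209, 4011 and 1271 CPM in mice 3, 4 and 5. The 4 such cells of mouse 4 held 244 Apoe UMIs. The part of free RNA from surrounding macrophages in these values was not tested.

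Transcripts of cell division were higher in dendritic cells. Mki67, a nuclear protein of dividing cells, was 219, 79.4, 110, 150.1 and 166 CPM in members and 105, 57.9, 52.1, 32.3 and 57.1 CPM in the rest. Of 16 genes of the G2 and M phases, 13 were higher in members in all 5 mice and 0 lower. Their summed level lay between 564 and 1202 CPM in members and between 120.2 and 477 CPM in the rest. The highest member value was that of mouse 1, where the 1 cell of the Xcr1/Clec9a class described below stood at 7649 CPM. The 5 cells of the Cd209a class there stood at 0 CPM, so the value of mouse 1 came mostly from 1 cell. Of 20 S phase genes, 0 were higher in every mouse and 0 lower.

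By the highest of the Xcr1 plus Clec9a, Cd209a and Ccr7 counts, members fell into a Cd209a class of 160 cells, an Xcr1/Clec9a class of 105, a Ccr7 class of 30 and 16 cells with Flt3 alone, and 1 cell was tied. The marker counts barely overlapped. Cells of the Cd209a class held 2791 Cd209a UMIs, 15 of Xcr1 or Clec9a and 1 of Ccr7, and those of the Xcr1/Clec9a class 1705 Xcr1 or Clec9a UMIs, 1 of Cd209a and 0 of Ccr7. In the Ccr7 class, 6 of 30 cells also held Xcr1 or Clec9a UMIs and 1 held Cd209a. Flt3 was found in 77 of 160 Cd209a cells, 98 of 105 Xcr1/Clec9a cells and 19 of 30 Ccr7 cells, with median depths of 13221, 19831 and 10127.5 UMIs.

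**Figure D2:**
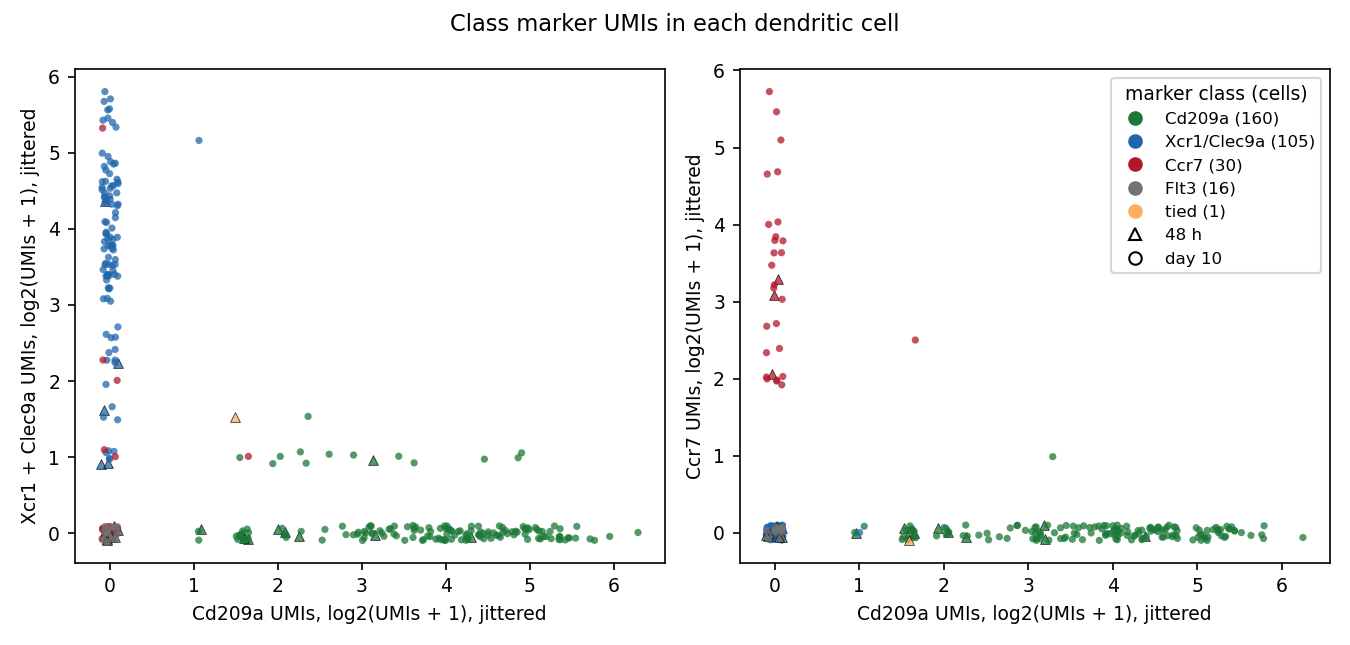
Each point is 1 of the 312 dendritic cells, with Cd209a UMIs on the horizontal axis and Xcr1 plus Clec9a UMIs (left) or Ccr7 UMIs (right) on the vertical axis, all as log2(UMIs + 1) with a small random shift, coloured by marker class and shaped by time. Cells line up along the axes, with few that hold UMIs of 2 classes.

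Other genes are given per class as pooled CPM with no test, since counts of the same cells made the classes. In the Xcr1/Clec9a class, Irf8 stood at 1658 CPM against 154 in the Cd209a and 198 in the Ccr7 class. Cadm1, an adhesion molecule of type 1 cells, was at 166 CPM against 4.50 and 30.3, and Tlr3, a sensor of double-stranded RNA, at 219.6 against 3.15 and 2.75. Naaa, a lysosomal amidase, was at 1492 CPM against 230.1 and 5.50, and Wdfy4, needed for cross-presentation of antigen on class I, at 640.3 against 118 and 90.8. Gcsam was found in 85 of 105 cells of this class, 0 of 160 of the Cd209a class and 1 of 30 of the Ccr7 class.

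The 14 genes of the type 1 list, which hold the rule genes Xcr1 and Clec9a, summed to 7785 and 2727 CPM, then 7034, 7183 and 7368 CPM in the Xcr1/Clec9a class of mice 1 to 5. The low value came from the 4 cells of mouse 2. There Ly6d, a plasmacytoid gene, had 76 UMIs, and in mouse 1 the 1 cell of this class carried 7649 CPM of G2 and M phase transcripts. At 48 h this class therefore rested on 5 cells.

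In the Cd209a class, Mgl2, a lectin, was at 1431 CPM against 26.4 in the Xcr1/Clec9a and 82.6 in the Ccr7 class. Clec10a, another lectin, was at 405 CPM against 9.89 and 2.75. Itgam, the integrin CD11b, was at 250 CPM against 7.07 and 5.50, and Sirpa, an inhibitory receptor of type 2 cells, at 143 against 7.54 and 35.8. Genes shared with macrophages were seen here, as Mrc1 was found in 81 of 160 cells and Il1b, an inflammatory cytokine, in 67. Class II levels were highest in this class, with H2-Aa at 8925 CPM against 6610 in the Xcr1/Clec9a and 4629 in the Ccr7 class. H2-DMb1 was at 870.1, 755 and 55.0 CPM in the same order.

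Maturation genes stood in the Ccr7 class. Fscn1, the actin bundler of mature dendritic cells, was at 905 CPM, found in 24 of 30 cells and at 0 UMIs in the other 3 classes. Ccl22 was at 2039 CPM against 30.2 in the Cd209a and 7.54 in the Xcr1/Clec9a class, and Ccl5, which attracts lymphocytes, at 3523 against 36.5 and 4.24. Relb, an NF-kB subunit, was at 567 CPM against 46.8 and 23.6, and Il4i1, an amino acid oxidase, at 831 against 21.6 and 2.83. Ccl17 was at 6233 CPM here and at 1118 CPM in the Cd209a class, where 67 of 160 cells had it. Il12b, a chain of interleukin 12, was found in 7 of the 30 cells, and 80.3% of its 71 UMIs came from 1 cell. Ccr2, the receptor that brings cells in from blood, was at 5.50 CPM against 761 and 652.

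Dividing cells were unevenly spread. The G2 and M phase genes summed to 1286 CPM in the Xcr1/Clec9a class, 524 in the Cd209a, 46.8 in the Ccr7 and 39.6 in the Flt3 class. Mki67 was found in 33 of 105, 13 of 160, 2 of 30 and 0 of 16 cells. At day 10 the sum was 712, 939 and 1917 CPM in the Xcr1/Clec9a class of mice 3, 4 and 5, above the Cd209a class of the same mouse each time (508, 21.9 and 529.9). At 48 h it was 7649 CPM in the 1 cell of mouse 1 and 172 in the 4 cells of mouse 2, against 0 and 1436 CPM in the 5 cells each of the Cd209a class, so that mouse 2 had the opposite order. The depth of the classes differed as given above, and the shares of cells were not taken at equal depth.

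The 16 cells with Flt3 alone stood apart from these classes. Chil3, a chitinase-like protein of monocytes, was at 3915 CPM there, from 790 UMIs, and had 2 UMIs in the other 3 classes together. Hp, haptoglobin, was at 689, Plac8 at 2799.6 and Ly6d at 1016 CPM. Of these 16 cells, 4 held 10 or more UMIs of the plasmacytoid genes Siglech, Ccr9 and Cox6a2, and 6 held 10 or more Lyz2 UMIs with 5 or more of the monocyte genes Ly6c2, Chil3, S100a8 and Vcan. Over all 312 members, 20 met the plasmacytoid limit and 7 the monocyte limit, both set after the values were seen. Of the 20 plasmacytoid-limit cells, 9 were in the Cd209a class, 6 in the Xcr1/Clec9a class and 1 was the tied cell, and 1 of the 7 monocyte-limit cells was in the Cd209a class. Genes of conventional dendritic cells led the 3 larger classes, whereas in 6 of the 16 Flt3 cells the monocyte genes go against the name.

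**Figure D3:**
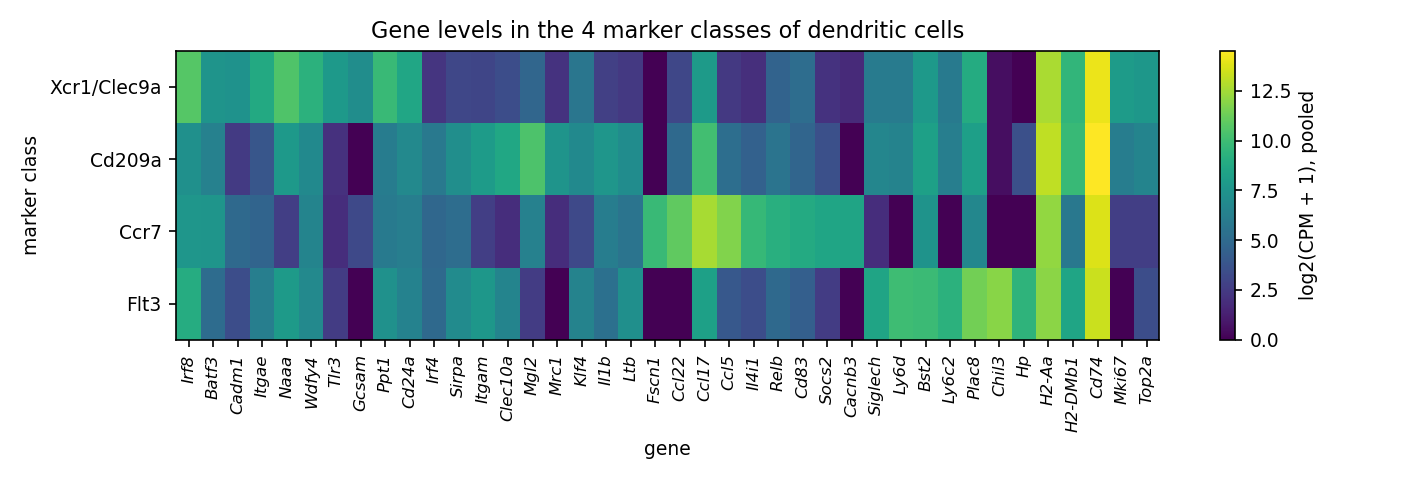
Pooled levels of marker and function genes in the 4 marker classes on the scale log2(CPM + 1). Type 1 genes on the left are bright in the Xcr1/Clec9a row, Mgl2 and Clec10a in the Cd209a row and Fscn1 and Ccl22 in the Ccr7 row, while Ly6d is brightest in the Flt3 row.

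Dendritic cells made up 1.28% of immune cells in mouse 1 and 1.09% in mouse 2 at 48 h, and 5.93%, 1.80% and 5.996% in mice 3, 4 and 5 at day 10. The exact 95% binomial intervals, which cover counting error only, were 0.666 to 2.23% and 0.582 to 1.86%, then 4.98 to 6.99%, 1.23 to 2.55% and 5.01 to 7.11%. Every day 10 mouse lay above both 48 h mice, but the interval of mouse 4 overlapped theirs. The share was 1.19% ± 0.137 (SD, n = 2) at 48 h and 4.58% ± 2.40 (SD, n = 3) at day 10. By edgeR's quasi-likelihood test on cell numbers it was higher at day 10 by 1.95 on the log2 scale (SE 0.643, adjusted p = 0.0263 over 3 denominators). Without mouse 1, 2 or 5 the adjusted p was 0.127, 0.173 and 0.104 (edgeR).

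Of all kept cells, dendritic cells were 0.245% and 0.349% at 48 h and 2.23%, 0.793% and 2.31% at day 10, a difference of 2.59 (adjusted p = 0.000559, edgeR). Of cluster 0 they were 2.33%, 2.12%, 7.11%, 1.96% and 7.07% in mice 1 to 5. Mouse 4 fell below both 48 h mice on that denominator, and the difference of 1.27 did not pass (adjusted p = 0.117, edgeR). In another setting, cells of cluster 0 were thinned to 3000 UMIs, and cells below that depth were left out of members and totals. The share of immune cells was then 0.553%, 0.186%, 5.46%, 1.33% and 5.32%, a difference of 3.50. It rested on 4 and 2 members at 48 h and 104, 21 and 93 at day 10. These are shares of recovered cells and not numbers per kidney.

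**Figure D4:**
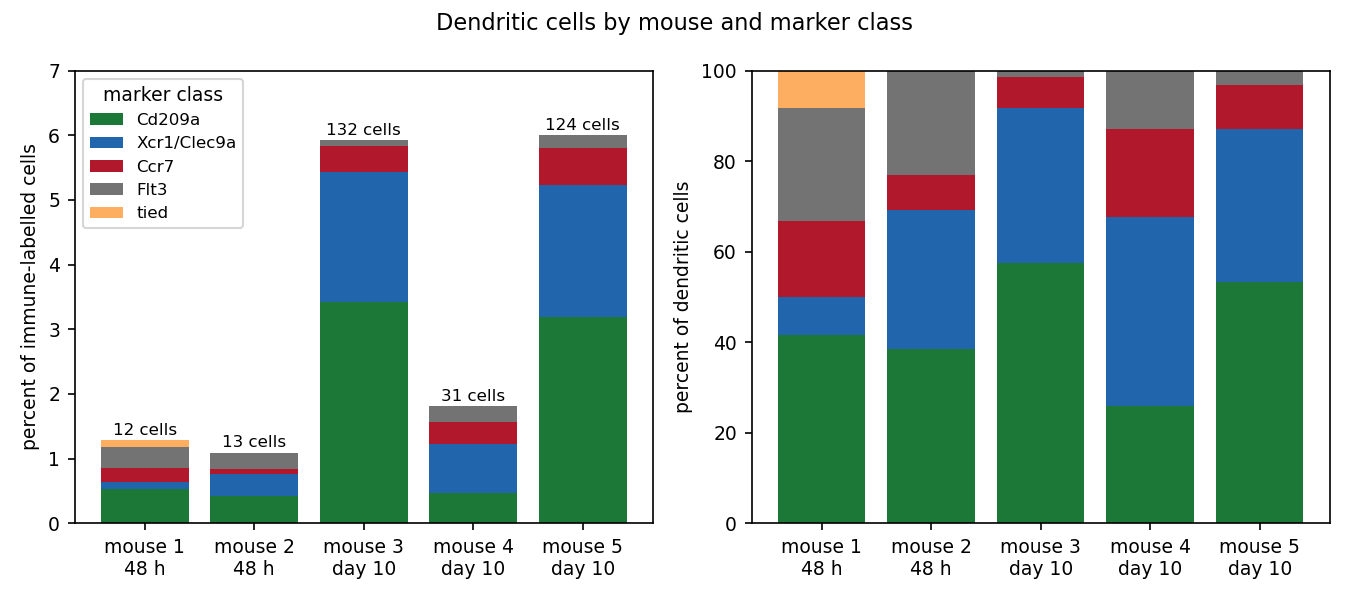
Dendritic cells by mouse, as percent of immune-labelled cells (left, with the number of cells above each bar) and as the makeup of the dendritic cells (right), coloured by marker class. Mice 3 and 5 stand at 5.93% and 5.996%, and the other 3 mice at 1.80% or less.

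The makeup by class varied between mice. The Cd209a class was 41.7% and 38.5% of dendritic cells at 48 h and 57.6%, 25.8% and 53.2% in mice 3, 4 and 5. The Xcr1/Clec9a class was 8.33% and 30.8%, then 34.1%, 41.9% and 33.9%, and the Ccr7 class 16.7% and 7.69%, then 6.82%, 19.4% and 9.68%. Cells with Flt3 alone were 25.0% and 23.1%, then 1.52%, 12.9% and 3.23%, with no overlap. Of the 5 classes, the tied cell counted as a class, 0 passed the edgeR test of their share and 1 had an unadjusted p under 0.05, Flt3 alone (-2.72, SE 1.02, adjusted p = 0.0895). Without mouse 4 that difference was -3.26 and passed (adjusted p = 0.00594, edgeR). The standard errors were 0.744 for the Xcr1/Clec9a and 1.10 for the Ccr7 class, so differences of that size were not detectable.

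Between 48 h and day 10, 21 of 5919 genes tested in dendritic cells passed edgeR's quasi-likelihood test at an adjusted p under 0.05 (0.355%), 7 higher at day 10 (0.118%) and 14 lower (0.237%). At an unadjusted p under 0.05 there were 719. The CPM of 36.5% of the genes did not overlap between the times. The test ran on UMIs summed over the members of each mouse, in which fewer cells of a kind and less RNA per cell cannot be told apart. The 48 h sums held 146391 and 188992 UMIs, and those of day 10 2100439, 493033 and 1988505.

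Genes of type 1 cells rose. Naaa was 280.1 and 243 CPM at 48 h and 741, 1034 and 792 CPM at day 10, with no overlap (1.78, SE 0.217, adjusted p = 0.00718, edgeR, here and below as the log2 fold change of day 10 over 48 h). Itgae, the integrin chain CD103 that binds E-cadherin, was 13.7 and 5.29 CPM, then 192, 402 and 196 (4.89, SE 0.673, adjusted p = 0.0147), from 3 UMIs in 25 cells and 991 in 287. Cadm1 was 13.7 and 15.9 CPM, then 75.2, 87.2 and 85.0 (2.53, SE 0.404, adjusted p = 0.0349), from 5 UMIs in 25 cells and 370 in 287. Of the 11 tested genes of the type 1 list outside the rule, these 3 rose and 0 fell, and all had a positive fold change, with a median of 1.78 against 0.02 over all genes. The share of the Xcr1/Clec9a class was 8.33% and 30.8% at 48 h, then 34.1%, 41.9% and 33.9%. It did not pass its own test (0.79, SE 0.744, adjusted p = 0.504, edgeR), and its part in the result was not tested.

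Within the Xcr1/Clec9a class, Naaa stood at 1494 and 129 CPM, then 1421, 1617 and 1601, where the value of mouse 1 came from 1 cell and that of mouse 2 from 6 UMIs. In the Cd209a class it was 124 and 419.7 CPM, then 244, 65.6 and 218, and the times overlap in both classes. Itgae in the Xcr1/Clec9a class was 90.5 and 21.5 CPM, then 425, 619.9 and 433, with no overlap, though the values of the 48 h mice came from 2 and 1 UMIs.

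Cst3, cystatin C, a protease inhibitor abundant in dendritic cells, was 4932 and 8985 CPM at 48 h and 14709.8, 17127 and 14541 CPM at day 10 (1.23, SE 0.19, adjusted p = 0.0275). Its level differed between classes, at 15614 and 19973 CPM, then 24713, 22327 and 23602 in the Xcr1/Clec9a class, with no overlap. In the Cd209a class it was 3050.4 and 7655 CPM, then 6158, 5336 and 6716, and the times overlap. In the Ccr7 class it was 3459 and 2325 CPM, then 16454, 18580 and 14993, with no overlap. The 48 h values came from 1 and 4 cells of the Xcr1/Clec9a class and 2 and 1 of the Ccr7 class. Fnbp1, a protein that shapes membranes, was 88.8 and 58.2 CPM, then 263, 256 and 278 (1.96, SE 0.268, adjusted p = 0.0147), and Rab43, a small GTPase, was 54.6 and 42.3 CPM, then 161, 231 and 199 (2.10, SE 0.312, adjusted p = 0.0221). Both rose with no overlap. Xcr1 was among the 7 genes as well, but it is a gene of the rule and its value is a description.

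Genes known from plasmacytoid cells and monocytes fell. Ly6d was 997 and 513 CPM at 48 h and 71.4, 109.5 and 77.9 CPM at day 10 (-3.10, SE 0.303, adjusted p = 0.00225), and all of its UMIs at both times were in members that met the plasmacytoid limit or the monocyte limit. Cox6a2 was 560.1 and 206 CPM, then 37.1, 40.6 and 39.7 (-3.20, SE 0.367, adjusted p = 0.00583). Ly6c2, a surface protein of classical monocytes, was 649 and 672 CPM, then 39.5, 20.3 and 68.4 (-3.75, SE 0.341, adjusted p = 0.00225), with 211 of its 222 UMIs at 48 h in those members. Members that met the plasmacytoid limit held 137 of these 222 Ly6c2 UMIs, and 172 of the 229 at day 10. The members of either limit were 8 of 25 cells at 48 h and 19 of 287 at day 10, and held 27.7% and 4.19% of all UMIs. By mouse they were 33.3% and 30.8%, then 4.55%, 12.9% and 7.26% of dendritic cells.

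Of the 11 plasmacytoid genes, 0 rose, 3 fell (Cox6a2, Ly6d and Bst2) and all had a negative fold change (median -1.70), with summed levels of 3996 and 2423 CPM, then 615, 864 and 797 CPM. Of the 10 tested monocyte genes, 0 rose and 3 fell (Plac8, Hp and Ly6c2, median -1.74), with summed levels of 3176 and 5312 CPM, then 1229, 2328 and 1503 CPM. Without the 27 members of those limits, 3 genes passed in place of 21, and 1 was shared, Fabp5. The other two were Apoe (5.66, adjusted p = 0.00908, edgeR), whose values by class are given above, and Psap, a lysosomal protein (1.40, adjusted p = 0.0251). Some genes no longer passed but had fold changes near their earlier size. Without those members Itgae was at 4.47, Cadm1 at 2.39, Ly6a at -2.47, Bst2 at -1.54 and Ly6e at -0.95, against 4.89, 2.53, -2.67, -1.81 and -1.14 with them, and Plac8 was at -1.41 against -1.71. Their adjusted p lay between 0.0815 and 0.168 (edgeR). Other genes of the 21 had smaller changes too, with Cst3 at 0.87, Ctsd at -1.44 and Lcn2 at -1.47 (adjusted p = 0.345, 0.312 and 0.493, edgeR). Naaa was at 1.40, Fnbp1 at 1.57 and Rab43 at 1.73 (adjusted p = 0.0815, 0.0815 and 0.168, edgeR). The limits use Cox6a2, Ly6c2 and S100a8, which were among the 21. S100a8 had 488 of its 505 UMIs at 48 h in 1 cell, and its values overlapped between the times.

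Other genes that fell were spread differently. Fabp5, a fatty acid carrier, was 813 and 688 CPM at 48 h and 213, 134 and 190.1 CPM at day 10 (-1.97, SE 0.232, adjusted p = 0.00618), and passed without those 27 members too (-2.42, adjusted p = 0.00206, edgeR). It sat in the Ccr7 class, whose 3 cells at 48 h held 222 of its 249 UMIs and whose 27 cells at day 10 held 728 of 891. Fabp5 was found in 27 of the 30 cells of both times. Within that class it was 3584 and 10816 CPM, then 3337, 1058 and 1966.

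Ly6e, an interferon-induced membrane protein, was 1516 and 1449.8 CPM, then 628, 623 and 662 (-1.14, SE 0.148, adjusted p = 0.0106). In the Cd209a class Ly6e was 1257 and 1259 CPM, then 522, 645 and 594, and in the Xcr1/Clec9a class 2263 and 1976 CPM, then 803, 578 and 769, with no overlap in either. Bst2, an antiviral membrane protein that is on the plasmacytoid and the interferon list, was 1018 and 757 CPM, then 223, 227 and 269.5 (-1.81, SE 0.204, adjusted p = 0.00583), with 202 of 292 UMIs at 48 h in the 8 cells. Of the interferon response list, 0 of 10 tested genes rose and 1 fell (Bst2), 9 had a negative fold change (median -1.13), and the summed levels were 4324 and 3677 CPM, then 1992, 1073 and 1630.4 CPM. Ctsd, a lysosomal protease, was 266 and 196 CPM, then 85.7, 60.8 and 65.9 (-1.58, SE 0.259, adjusted p = 0.0377). Ly6a (Sca-1) and Lcn2, an iron-trapping protein, fell by 2.67 and 2.08, and 41 of 71 Lcn2 UMIs at 48 h were in the 8 cells. The direction of Lcn2 turned, to 1.19, without the 163 members that met the T cell, B cell, neutrophil or tubule limits given above. Of these 163, 156 met the tubule limit. Lcn2 turned as well, to 0.37, with the rule applied to counts thinned to 3000 UMIs per cell.

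**Figure D5:**
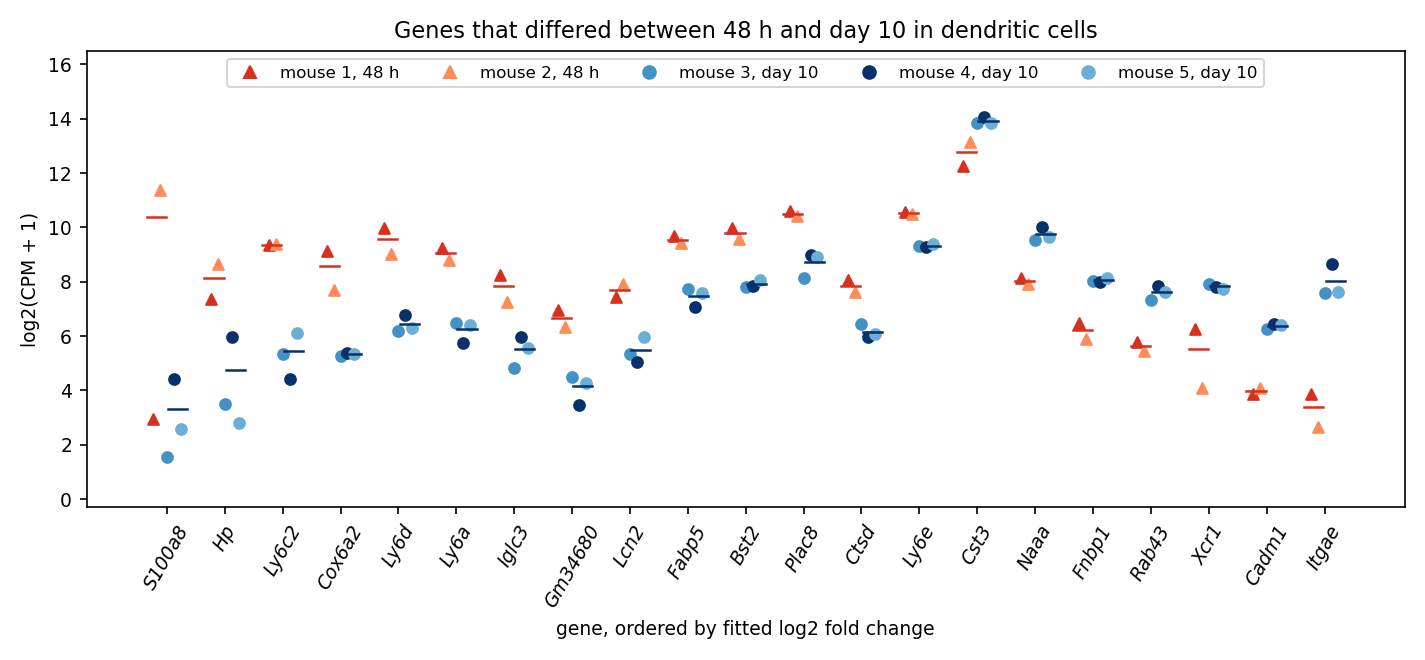
The 21 genes that passed the edgeR test between 48 h and day 10 in dendritic cells, on the scale log2(CPM + 1), 1 point per mouse (triangles 48 h, circles day 10), with a line at the log2 of each group mean plus 1. The groups overlap for S100a8 alone.

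The class II genes did not pass. H2-Aa had 4488 CPM ± 203 (SD, n = 2) at 48 h and 7248 ± 961 (SD, n = 3) at day 10 (0.77, SE 0.137, adjusted p = 0.0537, edgeR). Ciita was 198 and 190.5 CPM, then 376, 333 and 348 (0.94, SE 0.207, adjusted p = 0.0971). Of 15 class II genes tested, 0 passed, 11 had a positive fold change and the median was 0.69. Within classes, the list summed to 51239 and 42593 CPM, then 62215, 57118 and 54903 CPM in the Cd209a class, where the times did not overlap, and to 41638 and 34942 CPM, then 44365, 40288 and 40166 CPM in the Xcr1/Clec9a class, where they did.

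Of 19 maturation genes tested, 0 passed, with a median of 0.03. Ccl17 had the values given above (2.12, SE 0.446, adjusted p = 0.0886, edgeR), and Ccl22 was 27.3 and 21.2 CPM, then 136, 489 and 145 (3.41, SE 0.849, adjusted p = 0.138). Ccl5 was 485 and 1905 CPM, then 166, 296 and 225 (-2.32, SE 0.425, adjusted p = 0.0538), with 354 of its 431 UMIs at 48 h in 1 cell. Cd86, a ligand of CD28 on T cells, was 27.3 and 26.5 CPM, then 75.7, 48.7 and 73.9 (1.44, SE 0.426, adjusted p = 0.217), and 0 of 9 tested genes of co-stimulation and checkpoints passed. Of 22 dendritic cell transcription factors tested 0 passed (median 0.30), Irf8 at 0.49 and Zbtb46 at 0.99 among them.

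In the rest of cluster 0, 3795 of 13691 genes were called between the times (27.7%, edgeR), from sums of many more cells. The difference between the time effect in dendritic cells and that in the rest of the cluster was tested directly, with each mouse as a block. It passed for 548 of 12021 genes (4.56%), 433 with a higher change in dendritic cells (3.6%) and 115 with a lower one (0.957%). Without mouse 1 or 2 it passed for 141 and 95 genes.

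Some genes fell in the rest and did not pass in dendritic cells. S100a4, a calcium-binding protein of motile cells, was 1312 and 3185 CPM, then 1456, 896 and 1613 in dendritic cells and 1636 and 2354 CPM, then 156, 182 and 216 in the rest (difference 2.92, SE 0.266, adjusted p = 5.9e-06, edgeR). Of 10 genes of the S100 and annexin list, 6 differed in this direction and 1 (Anxa3) in the other. Of 12 monocyte genes, 6 differed in this direction too and 0 in the other. Cells that met the monocyte limit were 39.0% and 55.1% of the rest at 48 h and 2.15%, 11.98% and 2.95% at day 10, against 8.33% and 15.4%, then 0.758%, 6.45% and 0.806% of dendritic cells. Their part in these differences was not tested. Gapdh, a glycolytic enzyme, was 697 and 831 CPM, then 767, 722 and 687 in dendritic cells and 1629.8 and 1604 CPM, then 751, 823 and 725 in the rest (1.19, SE 0.188, adjusted p = 0.00119). Of 14 glycolysis genes tested, 4 differed this way, with Pgk1, Pkm and Ldha, and 0 the other way.

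Itgb7, an integrin chain that pairs with Itgae, was 109 and 196 CPM, then 193, 195 and 201 in dendritic cells and 44.9 and 50.3 CPM, then 5.90, 4.82 and 5.10 in the rest (3.70, SE 0.256, adjusted p = 3.5e-07, edgeR). Of the 14 type 1 genes tested here, 5 had a higher change in dendritic cells (Cadm1, Naaa, Wdfy4, Ppt1 and Ifi205) and 0 a lower one. Wdfy4 was 164 and 132 CPM, then 301, 473 and 384 in dendritic cells and 48.6 and 53.2 CPM, then 38.1, 36.3 and 37.7 in the rest (1.99, SE 0.262, adjusted p = 0.000276).

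Other genes rose in the rest and not in dendritic cells. Fabp5, which fell in dendritic cells, was 140.1 and 94.5 CPM, then 599.7, 972 and 556 in the rest (-4.40, SE 0.322, adjusted p = 3.6e-07, edgeR). Cd63, a protein of late endosomes, was 184 and 74.1 CPM, then 96.2, 77.1 and 102 in dendritic cells and 303 and 158 CPM, then 989, 1166 and 1011 in the rest (-2.42, SE 0.302, adjusted p = 0.000164). Trem2, a lipid receptor of macrophages, had 12 and 17 UMIs in dendritic cells at the 2 times. On the class II list the difference passed for 2 of 16 genes, Ctss (-0.84) and Ctsh (-1.32), proteases of the endosome, both with a lower change in dendritic cells.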

How the data were processed

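Droplet single-cell RNA libraries (10x Genomics, 3′ kits) were made from 5 kidneys, 1 per mouse. The authors deposited raw UMI counts per gene and barcode, made with Cell Ranger on mm10, version 6.0.0 per the file headers and 6.0.2 per the submitters' processing notes. The deposited cell table gives the authors' kept cells, clusters and cell types (Seurat 4.0.5, per the submitters' processing notes), with the percent of mitochondrial counts per cell. Its embedding scores, also deposited by the authors, were not used. Libraries held 68890100 to 97756005 UMIs and 3720 to 5912 kept cells. The members and gene lists were chosen with earlier results of these data known.

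UMIs were summed per mouse over members and over the rest of cluster 0 and tested with edgeR 4.0.16 (filterByExpr, TMM, quasi-likelihood test, Benjamini-Hochberg adjustment, threshold 0.05) in R 4.3.3. Cell shares were tested likewise on cell numbers with the total as offset. The interaction of population and time had the mouse as a block. Levels are CPM, UMIs per 1000000 summed UMIs of the population, without TMM factors. Alternatives used DESeq2 1.42.0, limma 3.58.1, other limits of the rule, equal depth and leaving out each mouse. Python 3.11.15 with pandas 2.3.3 and scipy 1.17.1 did the rest. On simulated data the member test recovered 31.3% of genes changed by 1 and 83.2% of genes changed by 2 on the log2 scale. It made 8 false calls (5552 genes). The interaction recovered 8.0% and 65.0%, with 0 false calls (5919 genes). How far these rates hold for the real counts was not tested.

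Named genes were the 15 largest and 10 smallest ratios to the rest among genes at 100 CPM or more, the 10 largest rises and falls, up to 4 of each per list, a fixed list, and the 8 largest interactions. Genes named beyond these were chosen after their values were seen. Labels do not say whether mice of a group shared a batch.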

Additional observations from a re-analysis of the deposited data

Results flagged for a closer look

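The time effect differed between dendritic cells and the rest of cluster 0 by the interaction test (edgeR) for 8 genes named by size, and 3 of them (Pltp, Fabp5 and Itgb7) passed under all alternatives run. Without mouse 2 the adjusted p (edgeR) was 0.282 for Trem2, 0.100 for Apoc2, 0.107 for Ccl5, 0.193 for Atp6v0d2 and 0.169 for Adam8, and without mouse 1 it was 0.201 for Atp6v0d2 and 0.0750 for Adam8. The difference was -3.60 for Pltp (phospholipid transfer), -4.40 for Fabp5, -4.11 for Trem2, -3.90 for Apoc2 and -3.87 for Ccl5. It was -7.54 for Atp6v0d2, a subunit of the vacuolar proton pump, from 2 and 6 UMIs in dendritic cells at 48 h and day 10. Adam8, a membrane protease, differed by 4.32, with 5 UMIs in dendritic cells at 48 h, and Itgb7 by 3.70. Pltp was 280.1 and 185 CPM, then 130, 34.5 and 128 in dendritic cells and 42.1 and 26.1 CPM, then 240.1, 98.1 and 252 in the rest. Adam8 was 0 and 26.5 CPM, then 70.5, 42.6 and 70.4 in dendritic cells and 150 and 222 CPM, then 37.7, 99.4 and 37.8 in the rest.

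Cells that met the marker limits were also found outside cluster 0. They were 9.90% of immune cluster 12 (10 of 101 cells), 3.29% of immune cluster 10 (11 of 334) and 0.387% of endothelial cells (13 of 3361), against 0 of 1292 cells of the proximal tubule S1 label. The exact 95% binomial intervals were 4.85 to 17.5%, 1.66 to 5.82%, 0.206 to 0.661% and 0 to 0.285% in this order, so the last 2 overlap. The DCT label had 0.366% (1 of 273 cells) and the Cycling PTEC label 0.345% (1 of 290), so the endothelial share was close to that of some other labels outside the immune cells. Ccr7 was found in 28 of the 101 cells of cluster 12 and 30 of the 334 of cluster 10. These cells are not among the 312.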

How the results depend on the processing

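The higher share of dendritic cells at day 10 was 1.27 on the log2 scale as a share of cluster 0 and did not pass there. Leaving out 1 mouse gave 1.71 to 2.33. The number of marker classes whose share passed was 0, and 1 without mouse 4 (range 0 to 1). Genes called between the times numbered 21, against 67 with DESeq2, 11 with limma, 222 with no filter on low counts, 8 at equal cells and UMIs, 11 with 3 or more marker UMIs, 1 (Apoe) without cells holding other markers and 10 to 78 when 1 mouse was left out. Chosen after seeing the data, the Cd209a class alone gave 0 of 1382 genes (101 at an unadjusted p under 0.05), the rule on thinned counts 0 of 4506 (449), and leaving out plasmacytoid and monocyte cells 3. Direction turned for Lcn2, at 1.19 without cells holding other markers and 0.37 under the thinned rule, and for Naaa, at -0.46 in the Cd209a class alone, and the cause was not tested. The setting without cells holding other markers left out members that met the T cell, B cell, neutrophil or tubule limits, 163 of the 312. It kept 10, 4, 39, 29 and 67 in mice 1 to 5. The tubule limit was met by 156 of those left out. Of the 21 genes, 7 passed without each mouse in turn (Bst2, Cox6a2, Fabp5, Ly6a, Ly6c2, Ly6d and Naaa). Differences from the rest of cluster 0 numbered 548, and 95 to 863 when 1 mouse was left out. A 48 h sum left with 1 mouse was assumed to vary like the others. The other classes were not run on their own, since each had fewer than the required 5 cells per mouse in both 48 h mice. No paired analysis was possible because mouse numbers are unique to a mouse and the groups share none. The 48 h sums rested on 12 and 13 cells. On simulated data the member test recovered 31.3% of genes changed by 1 on the log2 scale.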
